A study of Mus musculus with 6 samples.

Results

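The 10 genes described here, Utf1, Sall1, Sall3, Sall4, Lin28a, Lin28b, L1td1, Dppa2, Dppa4 and Zscan10, are genes of the pluripotency network of embryonic stem (ES) cells. They were chosen by name, as the rows of the deposited gene table with these symbols, and make up 10 of its 36699 rows. RNA came from mouse A2Lox.cre ES cells, a line with a site for doxycycline-inducible transgenes, on day 3 of embryoid body culture, a suspension culture in which ES cells begin to differentiate. The plus doxycycline group had 3 libraries from cells in which the drug switched on Flag-Sp5 at day 2, for 24 hours. Sp5 is a transcription factor with zinc fingers that binds GC-rich boxes and is a known target of Wnt signalling. The minus doxycycline group had 3 libraries, also labelled Flag-Sp5, from cells of the same culture scheme that were not given the drug. All cells had been grown on feeder fibroblasts from FVB mice and stripped of them before plating. No group had the drug alone, so effects of doxycycline and of Flag-Sp5 cannot be told apart.

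Pluripotent cells keep a network of transcription factors around Pou5f1 (Oct4), Sox2 and Nanog, and the genes here act beside that core. Utf1 is a chromatin-bound factor that tempers genes carrying both active and repressive histone marks, the Sall proteins are zinc-finger factors that recruit the NuRD deacetylase complex, and Zscan10 is a zinc-finger factor of ES cells. Lin28a and Lin28b are RNA-binding proteins known for blocking the maturation of let-7 microRNAs. L1td1 is an RNA-binding protein derived from a LINE-1 open reading frame, and Dppa2 and Dppa4 are partner proteins with a SAP DNA-binding domain that act on promoters of developmental and early embryonic genes.

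The table holds 1 value in FPKM for each group, into which the authors combined the 3 libraries, so no value carries an SD or n. FPKM values are fragment numbers scaled to transcript length and to the mapped total of a library, and depth is unknown because no counts were given. A gene is said to have risen or fallen where q was under 0.05 in the authors' Cuffdiff test. The labels do not say whether libraries came from separate cultures, so these p-values may measure only technical spread. The 95% intervals below are implied by the authors' test statistic, taking it as the log2 ratio divided by its standard error.

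Of the 10 genes, 6 fell, 1 rose, 2 were not called and 1 was not tested. In the authors' deposited table, 23.2% of all 18537 tested genes were called, as 12.7% fell and 10.5% rose. Among the 5988 tested genes at 10 FPKM or more without doxycycline, the level of all these genes but Sall3, 19.1% fell and 6.76% rose. The 9 tested genes had a median log2 ratio of -0.28, against -0.03 over all tested genes above 0 in both groups. In counts, 1949 genes rose and 2357 fell. With q recomputed from the implied standard errors over the 18284 tested genes above 0 in both groups, the calls were 1951 higher and 2360 lower without centring. They were 2467 higher and 1725 lower when all ratios were centred on the median of genes at 10 FPKM or more, a log2 shift of -0.07. The genes described kept their directions under that centring, except that Sall4, which was not called, moved from -0.06 to 0.01. In bulk RNA, fewer cells with a gene on and less RNA per cell cannot be told apart.

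**Figure D1:**
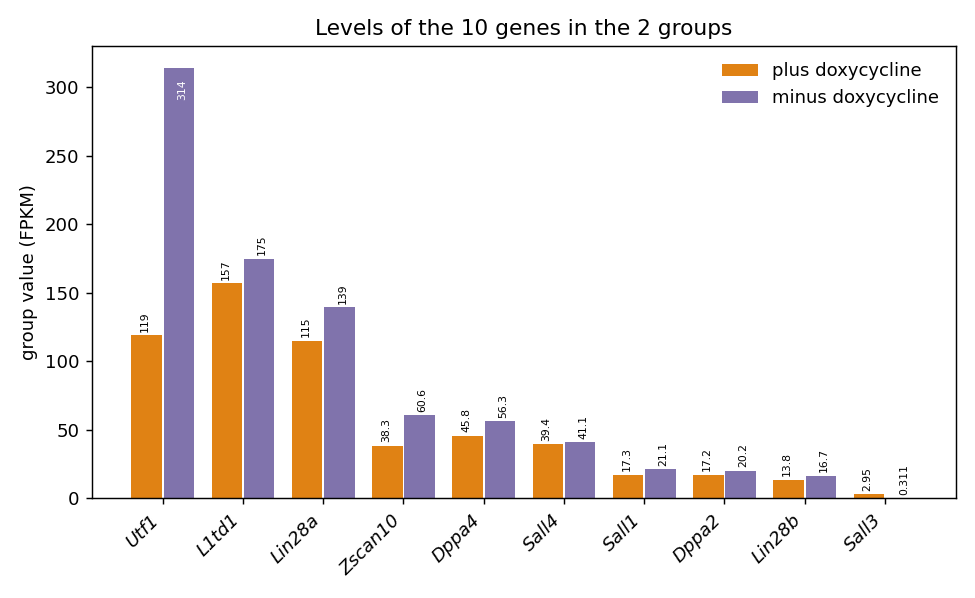
Group values in FPKM of the 10 genes, ordered by their level without doxycycline, with plus doxycycline bars left of minus doxycycline bars and no error because each bar is 1 deposited value. Utf1 stands at 119 FPKM with doxycycline and 314 FPKM without it, and Sall3 at 2.95 FPKM with doxycycline and 0.311 FPKM without it.

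The label of the treatment was checked on Sp5, which stood at 126 FPKM with doxycycline and 0.769 FPKM without it. The tested markers of pluripotent and epiblast cells were present in both groups. A further marker, Dnmt3b, was not tested and is listed at 273 FPKM with doxycycline and 0 FPKM without it, a case given below. Of 7 tested, 2 rose (Nanog and Tdgf1, given below), 3 fell and 2 were not called. Those not called were Pou5f1, at 1058 FPKM with doxycycline and 999 FPKM without it, and Sox2, at 60.6 FPKM with doxycycline and 60.8 FPKM without it. Fgf5, a growth factor gene of the primed epiblast, fell to 17.8 FPKM with doxycycline, against 56.5 FPKM without it (3.17-fold). The epithelial adhesion genes Cdh1 (1.34-fold) and Epcam (1.19-fold) also fell. The 12 fibroblast markers examined for leftover feeder cells summed to 62.0 FPKM with doxycycline and 68.4 FPKM without it. Most of both sums came from Vim, at 24.5 FPKM with doxycycline and 34.1 FPKM without it, and the untested Fn1. Fn1 stood at 19.8 FPKM with doxycycline and 16.6 FPKM without it, so the sums say little about the other markers. None of the 12 was at 0. Of the 10 tested, 2 rose (Col1a1, 3.99-fold, and Prrx1, 5.22-fold and under 1 FPKM in both groups). A further 3 fell (Dcn, 1.49-fold, Thy1, 1.45-fold, and Vim, 1.39-fold) and 5 were not called. The rows of Col1a1 and Prrx1 each share a locus with another row. The part of feeder cells in the results below was not tested.

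Utf1 fell the most. It stood at 119 FPKM with doxycycline and 314 FPKM without it, a log2 ratio of -1.40 (implied 95% interval -1.53 to -1.27), or 2.64-fold lower. The authors' deposited table lists its q as 0. Its row covers chromosome 7, positions 147129688 to 147131011 of mm9. Among the 903 tested rows at 100 FPKM or more without doxycycline, this was the 4th lowest ratio. Without doxycycline Utf1 had the highest FPKM of the 10 genes, and with it L1td1 had.

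The sequence before the Utf1 start is shown because Sp5 belongs to a family that binds GC boxes, and beside it those of Lin28a and Lin28b, which also fell, and of L1td1, which was not called. Each run is the 250 bases before the RefSeq start (build GRCm38.p6, gene strand, 5′ to 3′), and capitals mark the letters GGGCGG (GC box) or CACCC (GT box) on either strand, overlaps included. The windows are chr7:139943606-139943855 (plus strand) for Utf1, chr4:134018817-134019066 (minus strand) for Lin28a, chr10:45470202-45470451 (minus strand) for Lin28b and chr4:98726504-98726753 (plus strand) for L1td1.
Utf1: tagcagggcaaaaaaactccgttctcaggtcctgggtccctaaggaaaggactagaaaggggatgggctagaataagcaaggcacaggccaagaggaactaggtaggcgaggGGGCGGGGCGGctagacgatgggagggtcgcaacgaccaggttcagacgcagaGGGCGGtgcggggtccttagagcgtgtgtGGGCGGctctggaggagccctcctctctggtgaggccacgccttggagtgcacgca
Lin28a: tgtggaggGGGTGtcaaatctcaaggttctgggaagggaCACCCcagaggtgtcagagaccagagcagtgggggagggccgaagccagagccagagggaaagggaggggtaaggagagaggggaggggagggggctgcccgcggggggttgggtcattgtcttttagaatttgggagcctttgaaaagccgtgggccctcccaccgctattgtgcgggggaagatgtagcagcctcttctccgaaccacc
Lin28b: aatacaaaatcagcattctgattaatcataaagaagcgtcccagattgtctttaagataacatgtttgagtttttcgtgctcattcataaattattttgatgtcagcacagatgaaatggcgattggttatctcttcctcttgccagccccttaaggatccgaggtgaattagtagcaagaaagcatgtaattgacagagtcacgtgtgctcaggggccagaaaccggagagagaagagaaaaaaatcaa
L1td1: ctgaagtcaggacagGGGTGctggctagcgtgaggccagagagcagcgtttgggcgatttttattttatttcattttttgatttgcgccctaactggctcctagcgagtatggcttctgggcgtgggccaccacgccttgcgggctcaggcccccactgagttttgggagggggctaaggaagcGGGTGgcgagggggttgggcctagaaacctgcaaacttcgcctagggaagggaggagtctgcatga
The Utf1 window held 4 GC boxes, of which 2 overlap, and no GT box. The Lin28a and L1td1 windows each held 2 GT boxes and no GC box, and the Lin28b window held neither. Over all 32851 RefSeq windows of this length, 32.7% held a GC box, 4.09% held at least 4, and 52.0% held a GT box. The Utf1 window was 61.6% G and C and the Lin28b window 39.2%, against a median of 52.4% over all windows. A match to these letters is a description and not a site, and no binding was measured in these libraries. Windows were matched for 6 of the 10 genes. Those of the other four, Sall3, Sall4, Dppa2 and Dppa4, were not used here. Of the 3 Sall1 starts in RefSeq, 1 window held 4 GC boxes, 1 held 1 and 1 held none, and the Zscan10 window held no GC box and 1 GT box.

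The Sall genes went apart. Sall3, a factor of limb and cranial nerve development, rose to 2.95 FPKM with doxycycline, against 0.311 FPKM without it (chromosome 18, 81163115 to 81183317). The log2 ratio was 3.25 (implied 95% interval 2.98 to 3.52), a 9.49-fold rise. The authors' deposited table gives a q of 0. It was the 28th of 1414 rises by size among genes at 1 FPKM or more with doxycycline. Sall1, which is expressed in ES cells and later needed for the kidney, fell to 17.3 FPKM with doxycycline, against 21.1 FPKM without it (log2 -0.29, interval -0.41 to -0.16, q = 6.67e-05 in the authors' deposited table; chromosome 8, 91551147 to 91568061). Sall4, the family member that early embryos and ES cells depend on, stood at 39.4 FPKM with doxycycline and 41.1 FPKM without it and was not called (q = 0.779 in the authors' deposited table; chromosome 2, 168573832 to 168593608). Its implied interval ran from -0.26 to 0.13 on the log2 scale, and the Sall1 ratio of -0.29 lies just below it. The difference between the log2 ratios of Sall4 and Sall1 was 0.22, with an implied interval of -0.01 to 0.45.

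Sall2, the remaining member of the family and not among the 10 genes, stood at 15.9 FPKM with doxycycline and 35.5 FPKM without it, a 2.23-fold fall whose q the authors' deposited table lists as 0. The 4 Sall genes summed to 75.5 FPKM with doxycycline and 98.05 FPKM without it. Sall4 made up 52.1% of that sum with doxycycline and 42.0% without it, and Sall2 made up 21.1% with doxycycline and 36.2% without it. Sall3 made up 3.90% with doxycycline and 0.317% without it. Sall3 therefore stayed the lowest of the family after its rise.

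The RNA-binding genes of the Lin28 axis changed little in size. Lin28a stood at 115 FPKM with doxycycline and 139 FPKM without it, a fall of 0.28 on the log2 scale, or 1.21-fold (in the authors' deposited table, q = 0.000949; chromosome 4, 133559245 to 133575784). Lin28b fell to 13.8 FPKM with doxycycline, against 16.7 FPKM without it, again 1.21-fold (in the authors' deposited table, q = 0.00098; chromosome 10, 45096426 to 45206201). The 2 paralogues stood in a like proportion in both groups, with Lin28a 8.35 times the Lin28b FPKM with doxycycline and 8.37 times without it. The difference of their log2 ratios was -0.004 (implied interval -0.20 to 0.20). L1td1 stood at 157 FPKM with doxycycline and 175 FPKM without it and was not called (log2 -0.16, unadjusted p = 0.044, q = 0.145 in the authors' deposited table; chromosome 4, 98393425 to 98405171).

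Dppa4 and Dppa2 lie side by side on chromosome 16 (48283848 to 48294405 and 48310590 to 48319836), 16185 bases apart, and both fell. Dppa4 stood at 45.8 FPKM with doxycycline and 56.3 FPKM without it, 1.23-fold lower (log2 -0.30, interval -0.43 to -0.16, q = 0.000122 in the authors' deposited table). Dppa2 stood at 17.2 FPKM with doxycycline and 20.2 FPKM without it, 1.18-fold lower (log2 -0.23, interval -0.38 to -0.09, q = 0.00811 in the authors' deposited table). The call on Dppa2 was lost when ratios were centred on genes at 10 FPKM or more (q = 0.0888). Dppa4 was 2.66 times the Dppa2 FPKM with doxycycline and 2.78 times without it.

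Zscan10 (chromosome 17, 23737823 to 23747986) stood at 38.3 FPKM with doxycycline and 60.6 FPKM without it, a log2 ratio of -0.66. Its status in the authors' deposited table was FAIL, so it had no test and the difference has no error.

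**Figure D2:**
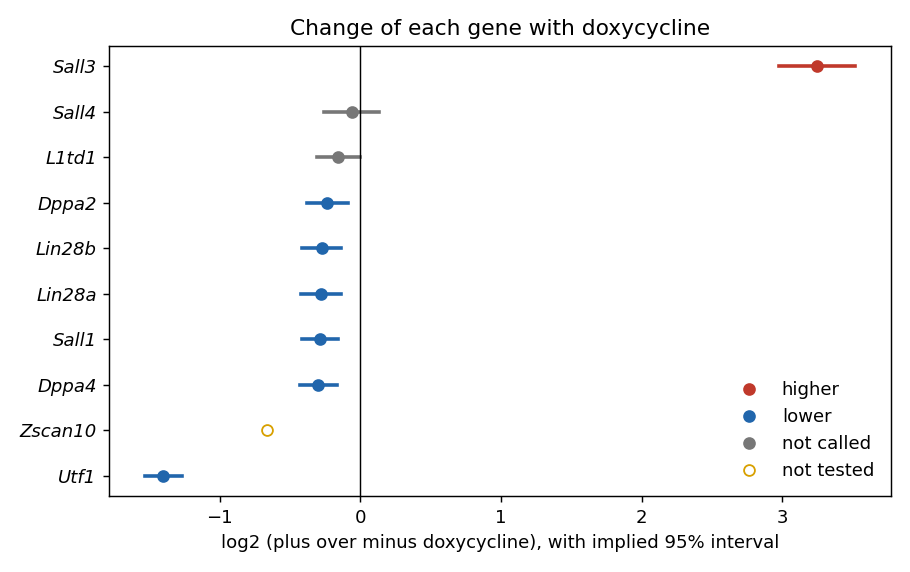
Log2 ratio of plus over minus doxycycline for each of the 10 genes (points) with the 95% interval implied by the authors' statistic (lines), coloured by call. Utf1 at -1.40 and Sall3 at 3.25 stand away from the 5 smaller falls between -0.30 and -0.23, and Zscan10 (open point) has no interval.

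The 5 falls other than Utf1 were between 15.0% and 18.7% in size and overlapped in their implied intervals. Values 10 to 20% lower with doxycycline were common, being found at any q in 18.8% of the 5988 tested genes at 10 FPKM or more without doxycycline. The implied standard errors of the 9 tested genes ran from 0.064 for Sall1 to 0.14 for Sall3 on the log2 scale. Lin28a and Sall4 each share a locus with 1 other row, Gm13061 (0.643 FPKM with doxycycline and 0.638 FPKM without it) and Gm14261 (0.929 FPKM with doxycycline and 0.908 FPKM without it), and the protocol mentions no strand marking. Reads of such pairs may therefore mix, though each partner lay under 1 FPKM.

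**Figure D3:**
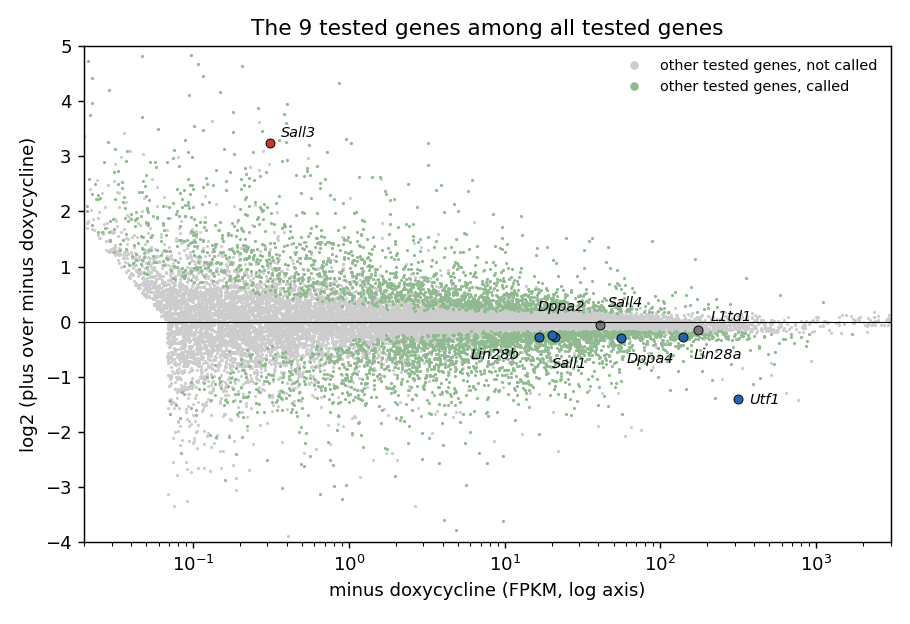
Log2 ratio of plus over minus doxycycline against the level without doxycycline (FPKM, log axis) for all tested genes within the axes, with the 9 tested genes of the set named, red for a rise, blue for a fall and grey for not called. Utf1, at 314 FPKM and -1.40, lies below most genes of like level, while the falls near -0.28 lie among many called genes.

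Sall3 had the largest called change of the 10 genes, and the tested genes nearest to it in the plane of both group values were Pyy, Cxcl14 and Nkx1-2. Pyy, a gut peptide hormone gene, stood at 3.04 FPKM with doxycycline and 0.278 FPKM without it. Cxcl14, a chemokine gene, stood at 2.83 FPKM with doxycycline and 0.374 FPKM without it, and both rose. Nkx1-2, a homeobox gene, stood at 3.26 FPKM with doxycycline and 0.264 FPKM without it but was not called (q = 0.43 in the authors' deposited table). This likeness rests on 2 group values only.

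Genes beside the called members were read out to 100 kb on each side. Of the 7 tested neighbours of Utf1, 3 fell and 4 were not called, while 12.7% of all tested genes fell and 10.5% rose. Kndc1, a gene of the kinase non-catalytic domain family, fell to 1.42 FPKM with doxycycline, against 1.80 FPKM without it (q = 0.0452 in the authors' deposited table). Gm16201 and 6430531B16Rik fell too and stayed under 1 FPKM in both groups. They share a locus with each other and with the uncalled rows of Adam8 and of Gm2044 with Mir202. These rows are therefore not separate neighbours. None of the 7 tested neighbours of Lin28a was called in the authors' Cuffdiff test (0 of 7 at an unadjusted p under 0.05), and neither was the 1 tested neighbour of Sall3, Atp9b, whose unadjusted p was under 0.05. Of the 3 tested neighbours of Lin28b, 1 rose and 2 were not called. Bves, a gene of muscle and epithelial membranes, rose to 0.755 FPKM with doxycycline, against 0.351 FPKM without it, opposite in direction to Lin28b. Sall1 had no other row within 100 kb, and the Dppa pair had each other and 1 other tested row, Gm7204, which was not called.

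In the pluripotency network around these genes, the tested genes numbered 21, of which 6 rose, 7 fell and 8 showed no call, with a median log2 ratio of -0.06. That is 28.6% higher and 33.3% lower, against 10.5% and 12.7% of all tested genes. Most of these network genes stood at 10 FPKM or more without doxycycline, where 6.76% of tested genes rose and 19.1% fell. Nanog rose to 117 FPKM with doxycycline, against 46.0 FPKM without it (2.54-fold). Prdm14 (2.43-fold, under 1 FPKM in both groups), the germ and naive cell gene Dppa3 (1.62-fold), Tdgf1, a Nodal co-receptor (1.46-fold), Dppa5a (1.28-fold) and Zfp42 (1.15-fold) also rose. Foxd3, a forkhead factor of the epiblast, fell to 13.7 FPKM with doxycycline, against 26.1 FPKM without it (1.91-fold). Tet1, which oxidises methylated cytosine (1.42-fold), the zinc-finger factor Zfp281 (1.37-fold) and the Wnt pathway repressor Tcf7l1 (1.36-fold) fell as well. So did the neural gene repressor Rest (1.31-fold), the co-regulator Hcfc1 (1.20-fold) and its partner Thap11 (1.17-fold). Of the 7 falls, 4 were in rows alone in their locus. Dppa3 and Dppa5a share a name with Dppa2 and Dppa4 and went the other way. Pou5f1 and Sox2, the factors known to drive Utf1, were not called. Only their RNA was measured here, and their part in the fall of Utf1 was not tested. Esrrb, Rif1 and Dnmt3b were not tested, and Dnmt3b, listed at 0 without doxycycline, had status HIDATA, which Cuffdiff gives to loci with too many fragments.

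**Figure D4:**
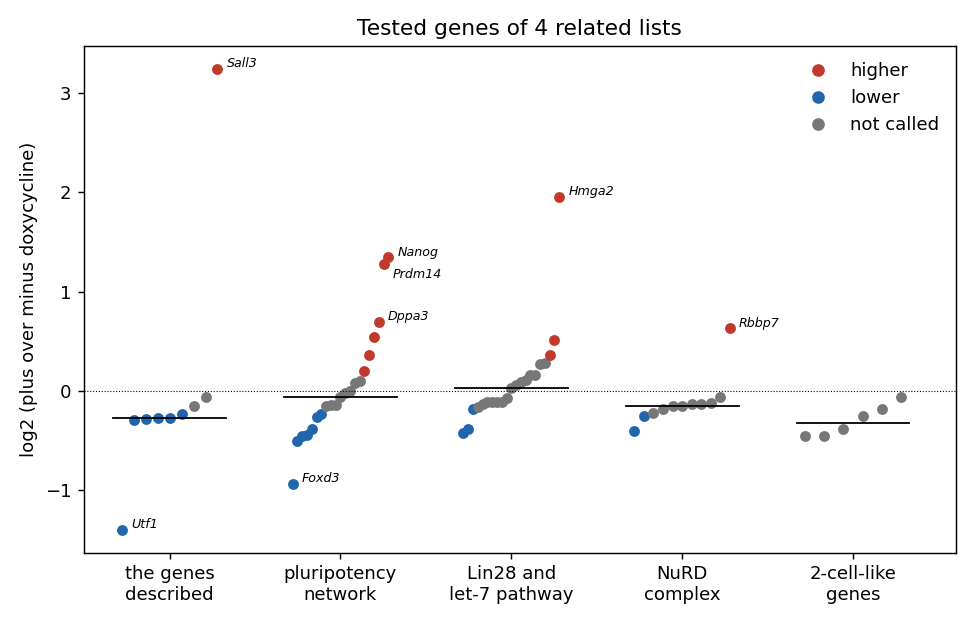
Log2 ratio of plus over minus doxycycline of each tested gene in the set described and in 4 related lists (points, sorted within a list, coloured by call), with the median of each list as a line. The network list holds both Nanog (1.34) and Foxd3 (-0.94), and Hmga2 (1.95) stands apart in the Lin28 and let-7 list.

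In the Lin28 and let-7 pathway, 3 of 21 tested genes rose, 3 fell and 15 were not called, with a median log2 ratio of 0.03. These shares, 14.3% in each direction, lie near those of all tested genes, 10.5% higher and 12.7% lower. Hmga2, a chromatin protein gene and known let-7 target, rose to 32.4 FPKM with doxycycline, against 8.39 FPKM without it (3.87-fold, and a q of 0 in the authors' deposited table). The let-7 target gene Arid3b (1.43-fold) and Dis3l2 (1.28-fold), a nuclease that degrades tailed let-7 precursors, rose less. None of these 3 rises was in a row alone in its locus, so their reads may mix with those of another row. The argonaute gene Eif2c2 fell to 5.50 FPKM with doxycycline, against 7.41 FPKM without it (1.35-fold). The mRNA-binding let-7 target Igf2bp2 (1.31-fold) and the precursor exporter Xpo5 (1.14-fold) also fell. Of these 3 falls, 2 were in rows alone in their locus. The genes Igf2bp1, Igf2bp3, Mycn, Hmga1, Arid3a, Ccnd2, Cdc25a and E2f2 were not called, nor was Trim71, also a known let-7 target. Neither were the processing genes Dicer1, Drosha, Dgcr8 and Tarbp2 and the tailing enzymes Zcchc11 and Zcchc6. Of 9 rows for let-7 genes, 8 were listed at 0 in both groups and untested. Mirlet7d stood at 7.09 FPKM with doxycycline and 2.62 FPKM without it and was not called (q = 0.769 in the authors' deposited table). Mature microRNAs are not measured by libraries of this kind.

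Of the NuRD complex, 1 of 11 tested subunits rose, 2 fell and 8 were not called, with a median log2 ratio of -0.15. That is 9.09% higher and 18.2% lower, against 10.5% and 12.7% of all tested genes. All tested subunits but Gatad2b stood at 10 FPKM or more without doxycycline. Among all tested genes at that level 6.76% rose and 19.1% fell, near the share of falls here. Rbbp7, a histone-binding subunit, rose to 241 FPKM with doxycycline, against 156 FPKM without it (1.55-fold). The Rbbp7 row shares a locus with another row, so its reads may mix with those of that row. Mta3 fell to 35.6 FPKM with doxycycline, against 47.3 FPKM without it (1.33-fold), and the remodelling ATPase Chd4 fell 1.19-fold (the authors' deposited table has q = 0.0298). Of these 2 falls, 1 was in a row alone in its locus. The deacetylase genes Hdac1 and Hdac2 were not called. Hdac1 stood at 170 FPKM with doxycycline and 189 FPKM without it, and Hdac2 at 122 FPKM with doxycycline and 127 FPKM without it.

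Genes of the 2-cell-like state, which depends on Dppa2 and Dppa4, were low. In the authors' Cuffdiff test, 0 of 6 tested genes were called, with 0 of 6 at an unadjusted p under 0.05, and no other tool could be run on group values. The highest were Zscan4d, at 1.96 FPKM with doxycycline and 2.22 FPKM without it, Zscan4f, at 1.40 FPKM with doxycycline and 1.82 FPKM without it, and Zscan4c, at 1.01 FPKM with doxycycline and 1.21 FPKM without it. Near-identical copies of the Zscan4 genes can share reads, so their split is uncertain. The median log2 ratio was -0.32, with 6 of 6 ratios below 0, against a median of -0.03 over all tested genes above 0 in both groups. Tdpoz3, Tdpoz4 and Zfp352 among them lay under 1 FPKM in both groups. Whether these genes moved together was not tested. Dux was listed at 0.042 FPKM with doxycycline and 0.0365 FPKM without it and was not tested.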

How the data were processed

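Poly(A)-selected RNA was sequenced in 6 libraries, 3 per group. Cuffdiff, Cufflinks 2.0.2, TopHat2 2.0.8, Picard and Bowtie are the tools, and mm9 the build, that the submitters' processing notes name. Annotation, scaling and filters were not given in the sources used here. The authors deposited 1 FPKM value per group, with their p-value, q-value and test statistic (a score whose sign is opposite to the log2 fold change). A call is status OK with q under 0.05. The deposited p equalled the two-sided normal p of the statistic to within 2.84e-06 in the 18284 tested rows above 0 in both groups, and the implied standard error is the log2 ratio over that statistic. Starts were read as counted from 0 and written from 1. Ratios are plus over minus doxycycline with no pseudocount, made in Python 3.11.15 (pandas 2.3.3, scipy 1.17.1, numpy 2.4.6). The q recomputation and centring were tested on simulated data. The genes and lists were chosen with earlier results of these data known. All 10 genes are named, with Sp5, the called genes of each list, neighbours within 100 kb of called genes and the 3 genes nearest to the largest change. Uncalled genes of a list could be named at 1 FPKM or more, and not all were. Untested or lower ones in the text were picked with their values known. Alternatives were q, fold and level thresholds, pseudocounts and centring. A planned comparison of protein sequences was not made.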

Additional observations from a re-analysis of the deposited data

How the results depend on the processing

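Sall3 was the 1 gene called higher under each of 8 alternatives. The 6 genes called lower stayed 6 at q under 0.01, at 1 FPKM or more, with q recomputed over genes at 1 FPKM or more, and after centring on the median of genes at 1 FPKM or more. They became 1, Utf1, with a minimum fold of 1.5 and also with a minimum fold of 2. They became 5 without rows that share a locus, which removes Lin28a, and 5 after centring on the median of genes at 10 FPKM or more, which removes Dppa2. The centred calls, which use the implied standard errors, and the centring on genes at 10 FPKM or more were chosen after seeing the data. The log2 ratio of Sall3 was 3.25, and 1.59 with a pseudocount of 1 FPKM and 2.89 with 0.1 FPKM, which shrink ratios of low genes. No called gene changed direction under these pseudocounts or centrings. Leaving out a library was not run, because the table holds group values only. The libraries are numbered 2, 3 and 4 without doxycycline and 1, 3 and 4 with it. Whether libraries of like number were paired is not known here. No paired analysis was possible, because the values are given per group and not per library. Depth is unknown, so what these libraries could not detect cannot be stated.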

Other observations

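Zscan10, which was not tested, lies among genes that were, and these were picked with their values known. Of its 10 tested neighbours within 100 kb, 4 fell, 1 rose and 5 were not called. Over all tested genes 12.7% fell and 10.5% rose. Mmp25, a matrix metalloproteinase gene, was 1.84-fold lower. Ccdc64b was 1.89-fold lower, and Cldn6, a tight junction gene of the epiblast, stood at 156 FPKM with doxycycline and 227 FPKM without it (1.45-fold lower). Thoc6, of the mRNA export complex THO, was 1.20-fold lower, and the zinc-finger gene Zfp213 rose 1.63-fold. Thoc6 shares its locus with Hcfc1r1 and Tnfrsf12a, which were not called, and Zfp213 shares its locus with the untested Gm17633. Beside L1td1, 1 of 4 tested neighbours rose and 3 were not called. Kank4 rose 1.69-fold and stayed under 1 FPKM in both groups, and it shares a locus with A730085A09Rik, which was not called.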
